A study of Mus musculus with 6 samples.

Results

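The genes described here write, remove or recruit marks on DNA and histones. They are Tet1, Dnmt3l, Rnf2, Hdac2, Hdac4, Sirt1, Dot1l, Kdm5b, Jmjd1c and Arid5b, 7 of them on mouse chromosome 10 and 3 on chromosome 1. A site of the transcription factor SP1 was counted for a gene when its midpoint lay inside the gene or within 50 kb of either end, by RefSeq positions on GRCm38.p6, which is mm10. All 10 genes had such sites, 87 among the 9001 sites that the authors' deposited table lists. Of these, 11 lay within 1 kb of an end of the gene (gene-end sites), at 7 genes, and the other 76 were distal, 37 of them inside the gene and 39 outside. Dnmt3l, Sirt1 and Kdm5b had no gene-end site.

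The study measured chromatin accessibility by ATAC-seq in R1 mouse embryonic stem cells (ESC) and in neural progenitor cells (NPC) also labelled R1, 3 libraries each. R1 is a pluripotent mouse stem cell line, and the labels name no treatment and do not say how the NPC were derived. Whether the labelled cell types carry their marker genes was not analysed here. The table covers chromosomes 1 and 10 and part of 11. Open DNA is cut by the Tn5 transposase, so more fragments over a site mean that it is more accessible. Values per library were not analysed here: each site has the authors' mean signal (normalized count averaged over libraries), log2 fold change of NPC over ESC, standard error (SE) and adjusted p, and the depth per library is unknown.

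DNA methylation and histone modification are linked layers of gene control. DNMT3 enzymes add methyl groups to cytosine with the help of the inactive partner DNMT3L, and TET enzymes oxidise them again. Polycomb complexes and deacetylases mostly oppose transcription, histone demethylases act either way by the mark they remove, and methylation of histone H3 by DOT1L accompanies it. Several of these proteins, TET1 and DNMT3L among them, are abundant in pluripotent cells, and SP1 itself binds the GC-rich starts of broadly used genes.

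The RefSeq promoter windows (250 bases before to 50 after a start, build GRCm38.p6) cover 13 starts of these 10 genes. They were searched for the GC box GGGCGG, the core of the SP1 motif, on both strands (read as CCGCCC on the other strand). It was found in 10 of the 13 windows (76.9%) and in 11714 of all 32851 RefSeq windows (35.7%). Of the 999 listed SP1 sites over a start window of a protein-coding gene, 697 lay over one with a GC box. A high share is thus not particular to these genes. Listed SP1 sites lay over a window at 7 of the genes, Tet1, Dnmt3l, Rnf2, Hdac2, Hdac4, Dot1l and Jmjd1c. The 6 windows below are shown because the site over each one is described in what follows, and they differ in GC boxes and in the direction of change. Capitals mark every GC box on either strand.
Rnf2 start, chr1:151500942-151501241, minus strand: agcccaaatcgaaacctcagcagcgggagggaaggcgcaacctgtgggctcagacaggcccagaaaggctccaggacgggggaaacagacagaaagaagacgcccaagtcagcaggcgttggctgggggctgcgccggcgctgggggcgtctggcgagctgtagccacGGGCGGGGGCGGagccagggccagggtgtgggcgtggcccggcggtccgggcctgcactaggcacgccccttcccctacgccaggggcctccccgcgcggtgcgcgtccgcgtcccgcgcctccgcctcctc
Hdac4 start, chr1:92180292-92180591, minus strand: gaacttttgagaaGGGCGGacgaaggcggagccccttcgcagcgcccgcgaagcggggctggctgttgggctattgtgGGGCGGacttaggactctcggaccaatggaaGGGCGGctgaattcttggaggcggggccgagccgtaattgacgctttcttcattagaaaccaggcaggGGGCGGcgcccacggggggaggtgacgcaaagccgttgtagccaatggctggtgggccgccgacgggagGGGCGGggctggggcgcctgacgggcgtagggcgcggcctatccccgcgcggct
Tet1 start, chr10:62887275-62887574, minus strand: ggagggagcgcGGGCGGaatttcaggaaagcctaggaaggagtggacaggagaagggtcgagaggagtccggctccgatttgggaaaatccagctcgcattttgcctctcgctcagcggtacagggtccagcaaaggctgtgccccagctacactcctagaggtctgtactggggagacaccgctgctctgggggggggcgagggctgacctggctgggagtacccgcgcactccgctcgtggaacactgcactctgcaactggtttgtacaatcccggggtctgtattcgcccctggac
Jmjd1c first listed start, chr10:67126838-67127137, plus strand: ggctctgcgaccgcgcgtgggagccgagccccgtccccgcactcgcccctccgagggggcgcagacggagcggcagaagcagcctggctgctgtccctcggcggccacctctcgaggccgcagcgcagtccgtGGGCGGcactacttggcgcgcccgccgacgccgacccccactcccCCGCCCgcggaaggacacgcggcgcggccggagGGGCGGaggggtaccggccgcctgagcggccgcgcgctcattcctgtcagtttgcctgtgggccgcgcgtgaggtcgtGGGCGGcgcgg
Jmjd1c second listed start, chr10:67185500-67185799, plus strand: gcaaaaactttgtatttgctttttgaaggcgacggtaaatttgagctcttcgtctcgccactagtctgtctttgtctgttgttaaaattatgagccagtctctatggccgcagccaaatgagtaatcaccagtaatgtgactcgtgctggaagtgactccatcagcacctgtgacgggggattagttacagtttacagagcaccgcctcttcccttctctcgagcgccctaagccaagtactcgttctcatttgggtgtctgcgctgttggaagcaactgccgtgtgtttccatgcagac
Dnmt3l inner start, chr10:78055085-78055384, plus strand: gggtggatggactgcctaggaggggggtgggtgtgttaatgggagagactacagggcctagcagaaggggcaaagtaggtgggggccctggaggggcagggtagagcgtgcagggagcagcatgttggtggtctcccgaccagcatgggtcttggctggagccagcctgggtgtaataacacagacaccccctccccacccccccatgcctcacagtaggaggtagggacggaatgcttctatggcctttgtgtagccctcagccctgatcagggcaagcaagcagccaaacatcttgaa
The Hdac4 window held 5 GC boxes, the first Jmjd1c window 4, the Rnf2 window 2 that adjoin each other and the Tet1 window 1. The second Jmjd1c window and the Dnmt3l window held none. CpG pairs numbered 47 in the first Jmjd1c window and 13 in the second, 32 at Hdac4, 30 at Rnf2, 17 at Tet1 and 3 at Dnmt3l, against a median of 7 over all windows. At Sirt1 the window had 6 GC boxes and 79.0% G or C, and at Kdm5b it had 1 GC box, but the table lists no site over either.

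Accessibility at the SP1 sites of these genes went both ways. At an adjusted p below 0.05 in the authors' deposited table, 17 of the 87 sites were higher in NPC (19.5%), 29 were lower (33.3%) and 41 were not called. Over all 9001 listed sites 22.8% rose, 32.6% fell and 55.4% were called in either direction, so the 52.9% called here was close to the background and is no result about these genes as a group. The median log2 fold change was -0.057, against -0.29 over all listed sites, and it was 0.10 without Arid5b. With p recomputed from fold change and SE, which was below the deposited p at 0 of all listed sites, 12 sites rose and 20 fell. With every fold change also centred on -0.29, 19 rose and 17 fell. Shares of all listed sites at these settings are not given here. Centring below always includes the recomputed p. By gene, all 7 called sites of Arid5b were lower in NPC, 3 of them inside the neighbouring gene Rtkn2. All 3 called sites of Dot1l were higher, and Hdac4 had 7 rises and 3 falls. With p recomputed, Arid5b had 5 falls and Hdac4 4 rises, and with centring 3 falls and 5 rises. Without Hdac4, by the deposited adjusted p, 10 sites rose in all. Differences between genes were not tested.

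**Figure D1:**
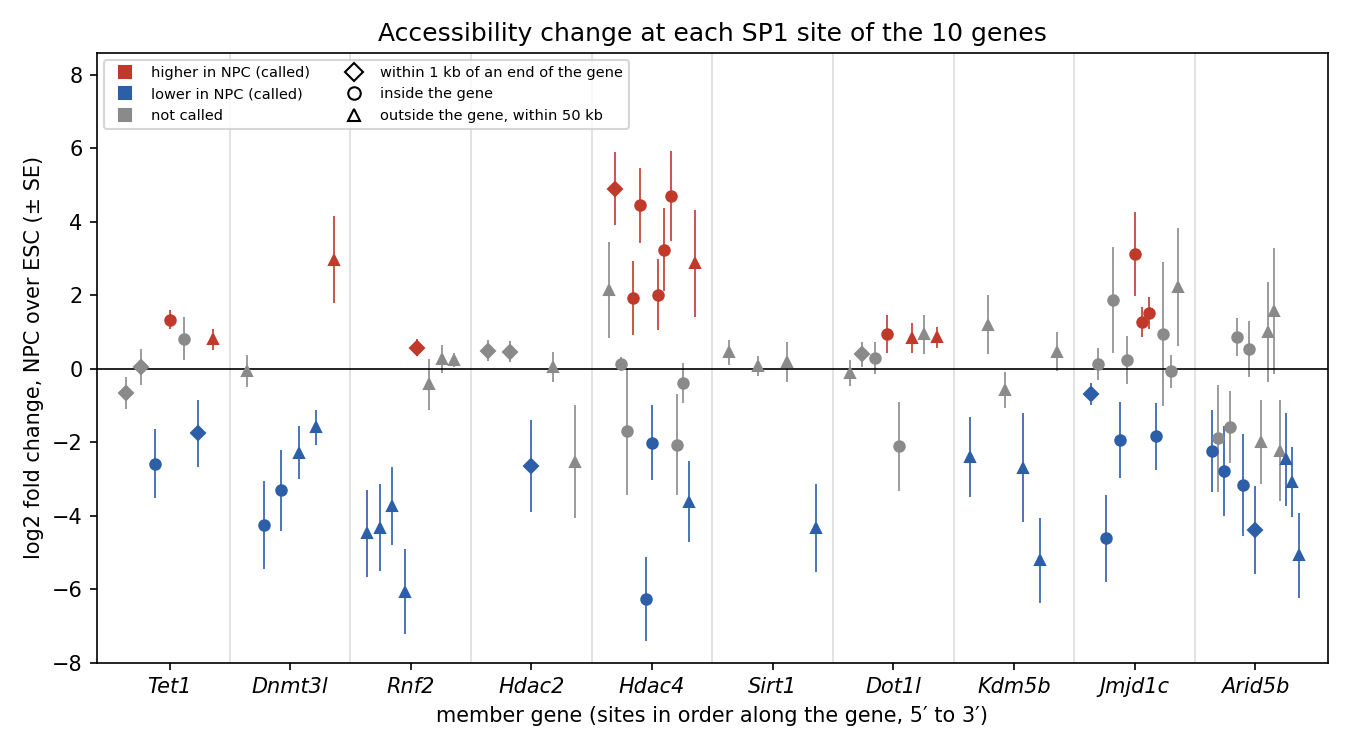
Log2 fold change (NPC over ESC, ± SE) of each of the 87 sites, ordered along each gene, in red where called higher in NPC, blue where called lower and grey where not called. Diamonds are gene-end sites, circles sites inside the gene and triangles sites outside it. Arid5b has 7 falls and 0 rises, Dot1l 3 rises and 0 falls.

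Sites of lower mean signal had larger SEs in the median and are read less firmly. Mean signal at the 87 sites ran from 0.982 to 104, with a median of 5.89 against 5.78 for all listed sites. The 46 sites at or above 5.78 had a median SE of 0.46, and 10 rose (21.7%) and 13 fell (28.3%), against 28.9% and 30.3% of all listed sites in that range. The 41 weaker sites had a median SE of 1.17, with 7 rises (17.1%) and 16 falls (39.0%), against 16.7% and 34.9%. The balance towards falls at weaker sites was thus also that of the whole table. Single sites at different genes, with signals close to the median, carried almost the same values in the authors' deposited table. Sirt1 had a fall of -4.35 ± 1.20 at a mean signal of 5.89. Rnf2 had -4.32 ± 1.20 at 5.92. The end of Arid5b had -4.38 ± 1.20 at 5.88. Equal signal did not fix the value, as a second Sirt1 site at 5.89 had 0.19 ± 0.54. At signals of 11.2 and 11.1, sites of Rnf2 and Kdm5b had -6.07 and -5.21. What sets the size of such fold changes was not tested, and they are given as log2 values, not as bounds.

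**Figure D2:**
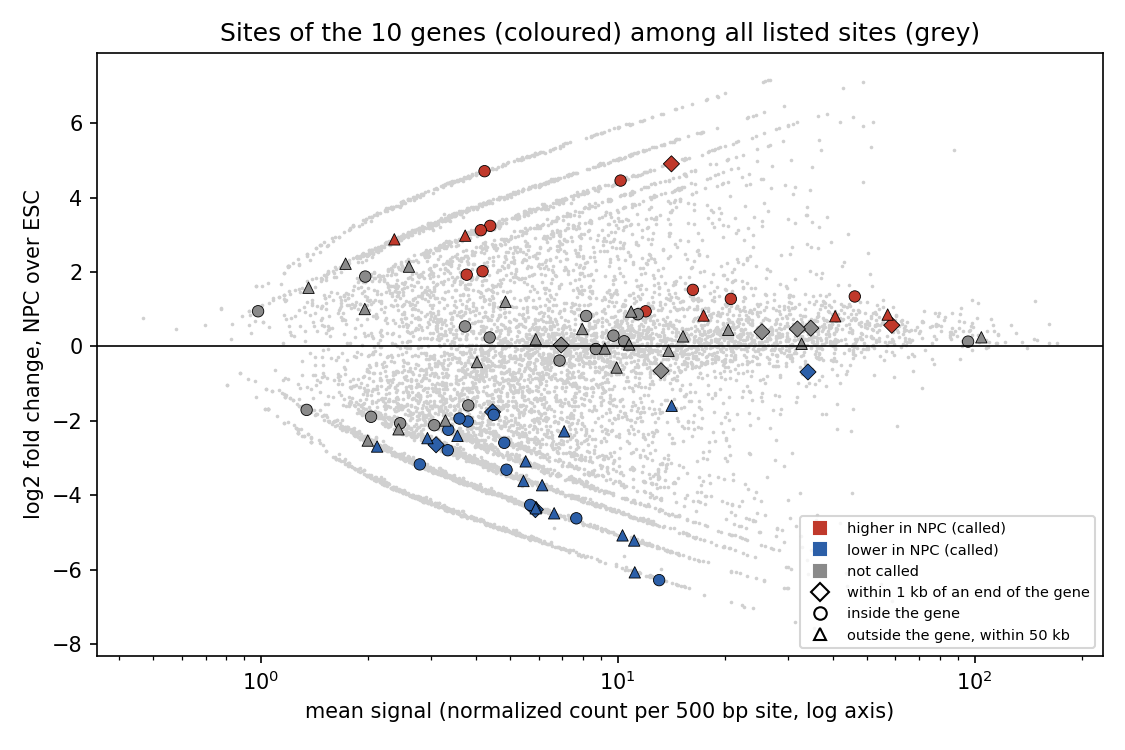
Log2 fold change against mean signal (log axis) for the 87 sites of the 10 genes, coloured by call and shaped by place, over all 9001 listed sites in grey. The strongest falls, down to -6.28, lie at signals of 13.1 and less, while the sites of highest signal (104 and 95.8) lie near 0.

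Tet1, the dioxygenase that starts active DNA demethylation, was more open at strong inner and flanking sites and less open at weak ones. Its leading site, inside the gene 22.1 kb from the 5′ end at chr10:62865138-62865638, had a mean signal of 46.1 and rose by 1.34 ± 0.27 (SE) on the log2 scale, 2.53-fold (adjusted p = 3.26e-06, authors' deposited table). A site 12.1 kb beyond the 3′ end, 64 bp from the neighbouring Ccar1 gene, rose by 0.81 ± 0.29 at a signal of 40.7 (adjusted p = 0.00467, authors' deposited table). Falls were called 3.14 kb inside the 5′ end (-2.59 ± 0.94, signal 4.81) and 312 bp beyond the 3′ end (-1.76 ± 0.91, signal 4.46), both in the authors' deposited table. The fall at the 3′ end was not called when p was recomputed or with centring. Over the start itself, whose window is printed above, the authors' deposited table had -0.65 ± 0.44 at a signal of 13.2, not called (adjusted p = 0.110). The overlapping site 504 bp inside the gene had 0.040 ± 0.49, and another inner site 0.82 ± 0.59, neither called in the authors' deposited table.

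Dnmt3l, the catalytically inactive cofactor of the de novo DNA methyltransferases, was less open at its 2 inner sites and at 2 sites just beyond it. Of its 6 sites 4 fell, 1 rose and 1 was not called. Inside the gene, 6.29 kb from the 5′ end at chr10:78048327-78048827, a site fell by 4.26 ± 1.20 on the log2 scale (signal 5.69, adjusted p = 0.000548, authors' deposited table). The site that covers the inner start printed above, chr10:78055045-78055545, had -3.31 ± 1.11 at a signal of 4.88 (adjusted p = 0.00333, authors' deposited table). Beyond the 3′ end, the authors' deposited table gave falls of -2.28 ± 0.72 and -1.60 ± 0.48 at sites 3.79 and 5.68 kb away. Both lay nearer to Icosl, an immune costimulatory ligand gene, 1957 and 70 bp from an end of it. The single rise, 2.98 ± 1.17 at a signal of 3.74, lay 41.0 kb from the gene and 25.1 kb from Icosl, in the authors' deposited table. The uncalled site, 14.0 kb upstream and nearer to Aire, had -0.057 ± 0.43 in the authors' deposited table.

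Rnf2, the ubiquitin ligase of Polycomb repressive complex 1, had a more open start and less open upstream sites. The start site at chr1:151500714-151501214, with a signal of 58.6, rose by 0.57 ± 0.23 on the log2 scale, 1.48-fold (adjusted p = 0.0160, authors' deposited table). Upstream of it, all 4 listed sites fell. The nearest, 14.9 kb upstream at chr1:151515637-151516137, had -6.07 ± 1.15 at a signal of 11.2 (adjusted p = 4.23e-07, authors' deposited table). At 17.1 kb the authors' deposited table gave -3.73 ± 1.07, and at 43.3 and 43.8 kb a pair of adjacent sites, nearer to Niban1, had -4.32 ± 1.20 and -4.48 ± 1.18. On the 3′ side no site was called, and the strongest of all 87 sites, at signal 104 and 22 bp from an end of Trmt1l, had 0.25 ± 0.18 in the authors' deposited table.

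Hdac2, a class I deacetylase of several corepressor complexes, had no call at its start. Its overlapping start sites had 0.49 ± 0.28 at a signal of 34.7 and 0.47 ± 0.29 at 31.9 (adjusted p = 0.0803 and 0.102, authors' deposited table). The only call was a fall near the 3′ end, 959 bp inside the gene, of -2.64 ± 1.25 at a signal of 3.10 (adjusted p = 0.0257, authors' deposited table). The call at the 3′ end was lost with p recomputed, with or without centring, and both start sites were called as rises with centring. Sites 12.6 and 14.6 kb beyond the gene had 0.053 ± 0.40 and -2.53 ± 1.53 in the authors' deposited table, not called.

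Hdac4, a class IIa deacetylase that shuttles between nucleus and cytoplasm, had the most rises, 7 of 15 sites, with 3 falls and 5 uncalled. The gene-end site, 301 bp upstream of the RefSeq interval at chr1:92195753-92196253, rose by 4.91 ± 1.00 on the log2 scale at a signal of 14.1 (adjusted p = 3.87e-06, authors' deposited table). The RefSeq promoter table places the start further in, and the site over it, 15.2 kb inside the interval at chr1:92180255-92180755, had a signal of 95.8 and 0.13 ± 0.19 (adjusted p = 0.534, authors' deposited table). Within the gene the authors' deposited table gave rises of 4.46 ± 1.02 (signal 10.2, 65.0 kb from the 5′ end) and 4.71 ± 1.23 (signal 4.23, 134 kb). A fall of -6.28 ± 1.14, the largest of the 87 sites, lay 76.2 kb in, at chr1:92119246-92119746, between those rises (signal 13.1, adjusted p = 1.54e-07, authors' deposited table). The other 11 distal sites, the start site among them, ran from -3.61 to 3.24, 4 rising and 2 falling in the authors' deposited table. Rises and falls were interspersed along the gene.

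Sirt1, an NAD-dependent deacetylase, had no site inside or at an end of the gene. A site 21.7 kb upstream, at chr10:63360465-63360965, was the one call, a fall (adjusted p = 0.000421, authors' deposited table). The other 3 sites, in or near Dnajc12, ran from 0.072 to 0.45 at signals of 5.89 to 32.7 and were not called in the authors' deposited table.

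Dot1l, the methyltransferase for a lysine in the core of histone H3, had rises and no falls, all below 2-fold. Its start site had 0.39 ± 0.35 at a signal of 25.3, not called (adjusted p = 0.245, authors' deposited table). Inside the gene, 19.7 kb from the start, a site rose by 0.94 ± 0.51 (adjusted p = 0.0487, authors' deposited table). The other rises lay in Plekhj1, 3.14 kb beyond the 3′ end (0.83 ± 0.41, adjusted p = 0.0335), and 228 bp from Oaz1, 31.0 kb away (0.86 ± 0.28, signal 57.1, adjusted p = 0.00264), in the authors' deposited table. Of the rest, the lowest was -2.12 ± 1.22 at a signal of 3.06 and the highest 0.94 ± 0.52, uncalled in the authors' deposited table. With p recomputed, the rises inside the gene and in Plekhj1 were not called.

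Kdm5b removes methyl groups from histone H3 at active promoters. Its listed sites all lay outside the gene, 5 upstream and 1 downstream. The strongest, 24.9 kb upstream at chr1:134535018-134535518 and 5673 bp from Mgat4e, fell by 5.21 ± 1.15 on the log2 scale (signal 11.1, adjusted p = 1.42e-05, authors' deposited table). Falls of -2.69 ± 1.50 and -2.40 ± 1.09 were called 35.5 and 46.5 kb upstream at signals of 2.12 and 3.56 (adjusted p = 0.0450 and 0.0225, authors' deposited table), and neither was called with p recomputed or with centring. The 3 uncalled sites ran from -0.57 to 1.20 in the authors' deposited table. All 6 sites of Kdm5b lay nearer to another gene than to it or inside one.

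Jmjd1c, a JmjC-domain protein related to the KDM3 histone demethylases, was more open at its second listed start and less open at its 5′ end. The gene-end site, 78 bp upstream of the RefSeq interval and inside Reep3, whose end is 715 bp away, fell by 0.69 ± 0.30 on the log2 scale at a signal of 34.1 (adjusted p = 0.0202, authors' deposited table). This fall was called with p recomputed but not with centring. Overlapping sites at the second listed start, 89.3 and 89.6 kb in, rose by 1.28 ± 0.40 and 1.52 ± 0.44 at signals of 20.7 and 16.2 (adjusted p = 0.00194 and 0.00107, authors' deposited table). The first listed start, at 30.8 kb, had 0.24 ± 0.65 at a signal of 4.38, not called in the authors' deposited table. Mean signal was higher at the start whose window held no GC box than at the one whose window held 4. Between the 5′ end and the first start, a site at chr10:67106912-67107412 fell by 4.62 ± 1.18 (signal 7.65, adjusted p = 0.000160, authors' deposited table). The other 9 distal sites, the first start among them, ran from -1.94 to 3.12, 1 rising and 2 falling in the authors' deposited table.

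Arid5b encodes an AT-rich-interaction-domain protein that can bring the demethylase PHF2 to DNA. Of its 15 sites, 7 fell, 0 rose and 8 were not called, with a median log2 fold change of -2.23. The most significant fall, -5.08 ± 1.16 at a signal of 10.3, lay 48.3 kb beyond the 3′ end inside Rtkn2, at chr10:68043941-68044441 (adjusted p = 2.50e-05, authors' deposited table). Next to it, also inside Rtkn2, the authors' deposited table gave -3.09 ± 0.96. All 3 falls called outside Arid5b and more than 1 kb from it lay inside Rtkn2. The gene-end site, 485 bp beyond the 3′ end at chr10:68091788-68092288, had the fall of -4.38 given above (adjusted p = 0.000387, authors' deposited table). Of the 3 falls left with centring, only this gene-end site lay outside Rtkn2. Inside the gene 3 of 7 sites fell, led by -3.17 ± 1.38 at a signal of 2.79 (adjusted p = 0.0157, authors' deposited table), and of these 3, 2 were called with p recomputed and 0 with centring. The strongest site by signal, 11.4, was uncalled with 0.87 ± 0.51 in the authors' deposited table. No site lay over the start, whose window had no GC box and 43.3% G or C.

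**Figure D3:**
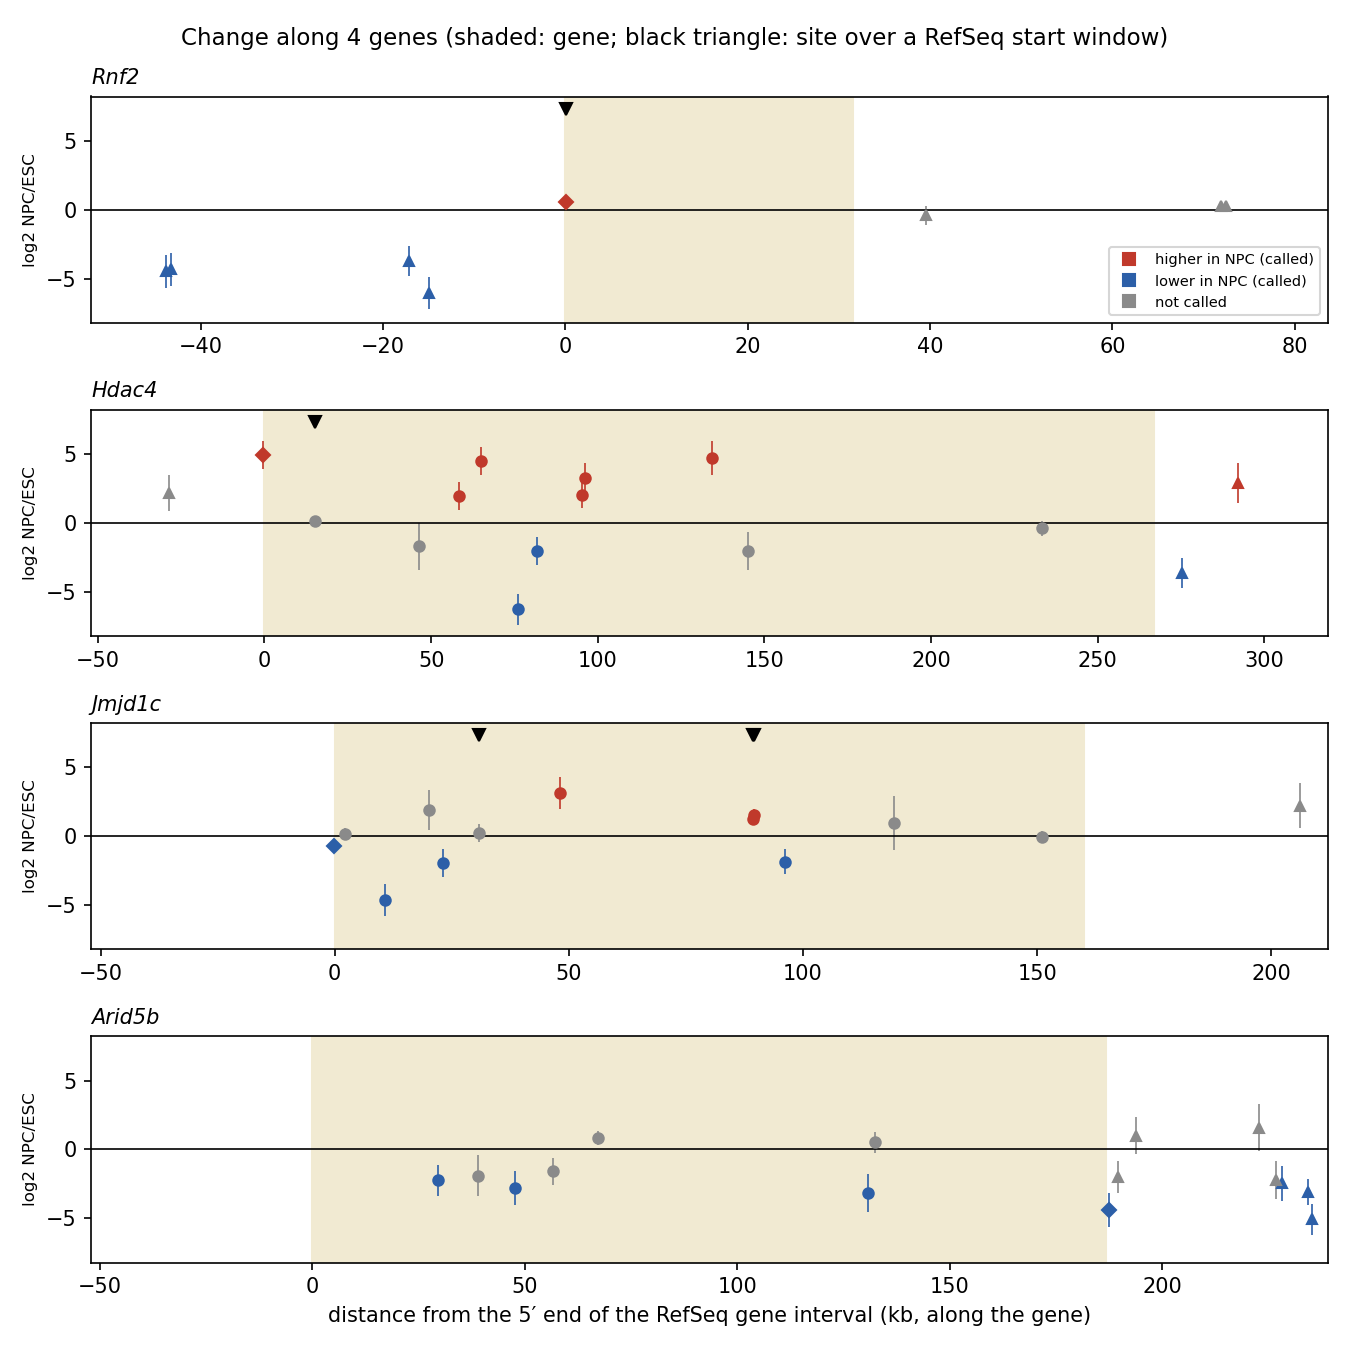
Log2 fold change (± SE) against distance from the 5′ end of the RefSeq interval (kb along the gene) for Rnf2, Hdac4, Jmjd1c and Arid5b, coloured by call. Shading spans the gene and black triangles mark sites over a RefSeq start window. Falls at Rnf2 lie upstream of the start, calls at Hdac4 go both ways, and calls at Arid5b are falls.

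At gene ends, 2 of the 11 sites rose and 4 fell, where 40.2% of the 1481 gene-end sites of all protein-coding genes were called, 24.1% as rises and 16.1% as falls. This balance turned with the processing, to 2 rises and 2 falls with p recomputed and to 4 rises and 1 fall with centring. Shares of all 1481 gene-end sites at these settings are not given here. Centring on -0.29 raises every fold change, so the turned balance is no result about these genes. A split by end, made after the values were seen, set the 5′ and 3′ ends apart. Of 8 sites at 5′ ends, 2 rose (Rnf2 and Hdac4) and 1 fell (Jmjd1c), against 24.3% rises and 13.1% falls (37.4% called) among 1114 listed sites at 5′ ends. All 3 sites at 3′ ends, those of Tet1, Hdac2 and Arid5b, fell, with signals of 3.10 to 5.88. Of 132 listed sites at a 3′ end only, 33.3% fell and 20.5% rose (53.8% called), so 3 sites are too few to set these genes apart.

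Counted by RefSeq start windows instead, 10 sites at 7 genes lay over a start. Of these 3 rose (Rnf2 and both Jmjd1c sites), 1 fell (Dnmt3l) and 6 were not called, where 27.6% of the 999 such sites in the whole table rose and 12.8% fell. Their median log2 fold change was 0.43, against 0.27 for all 999. In the whole table, 697 sites over a window with a GC box had a median signal of 25.8 with 28.3% rising and 9.90% falling. The 302 over windows without one had a median signal of 16.4, with 26.2% rising and 19.5% falling. The Dnmt3l fall and both Jmjd1c rises belong to windows without a GC box, and the Rnf2 rise to one with it.

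Distal sites made up most of the calls, 15 rises and 25 falls of 76, or 19.7% and 32.9%. Among all 7520 listed sites away from gene ends, 58.4% were called, 22.5% as rises and 35.9% as falls. Those 7520 leave out the ends of every protein-coding gene. The 67 distal sites away from every such end had 12 rises (17.9%) and 24 falls (35.8%), 53.7% called. Inside the genes 10 rose and 11 fell of 37, and outside 5 rose and 14 fell of 39. No share over all listed sites is given for either place, and the difference was not tested. Of the distal sites, 9 lay within 1 kb of an end of another protein-coding gene, with 3 rises and 1 fall. Among all 1481 gene-end sites 24.1% rose and 16.1% fell. Another gene was nearer than the member, or held the site, at 29 of the 87 sites, so nearness does not show which gene a site serves. Of these 29, 4 rose (13.8%) and 11 fell (37.9%), against 22.8% and 32.6% of all listed sites. Where the window of 50 kb ended, the last sites inside had -5.08 (Arid5b), 0.45 (Sirt1) and -3.09 (Arid5b) in the authors' deposited table. The first outside it, 50.4 kb from Hdac2 and 52.4 and 53.0 kb from Dot1l, had -5.46, 0.44 and 0.65.

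**Figure D4:**
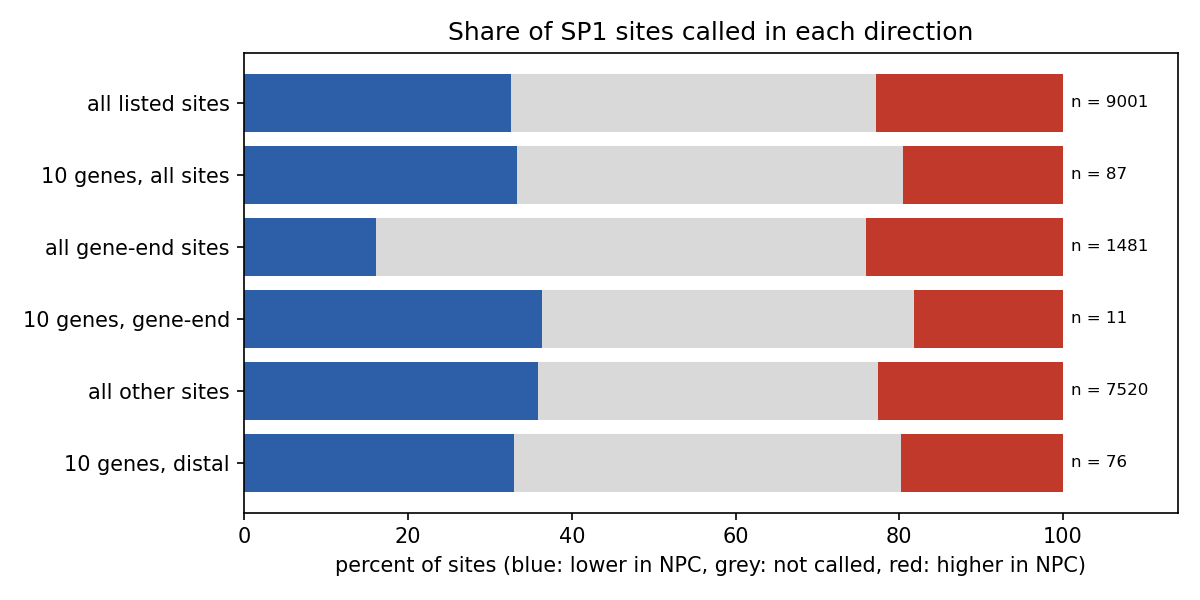
Percent of sites called lower in NPC (blue), not called (grey) and called higher (red) for the 10 genes and for all listed sites, in total and by class. The distal class of the 10 genes includes 9 sites at another gene's end, which the class of all other sites leaves out. Falls take 33.3% of the 87 sites and 32.6% of all 9001, while at gene ends they take 4 of 11 sites against 16.1% of 1481. With centring, which is not drawn, they take 1 of 11, and the share of all gene-end sites is not given.

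The few called neighbours moved the same way, as most did in the whole table. Of 8 pairs of adjacent, non-overlapping sites with midpoints within 2 kb, 4 had both sites called, and all 4 had the same direction, 1 up at Hdac4 and 3 down at Rnf2, Arid5b and Dnmt3l. Over all listed sites this held for 180 of 231 such called pairs (77.9%), so 4 pairs are too few to set these genes apart. Midpoints of the 4 pairs lay 513 bp (Rnf2) to 1887 bp (Dnmt3l) apart. Where sites lie close, a fragment can cover part of both, so the sites of a pair are not counted as independent. Fragment lengths were not analysed here.

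Within a gene, the gene-end site and the distal site of highest signal were set against each other at the 7 genes that had both. The 95% interval of the difference, from the deposited SEs taken as independent although both sites come from the same libraries, left out 0 at 4 of the 7 genes. Gene-end minus distal was -2.00 on the log2 scale at Tet1 (interval -3.00 to -0.99), -1.96 at Jmjd1c (-2.95 to -0.98) and -5.25 at Arid5b (-7.81 to -2.69). In Hdac4 the difference was 4.78 (2.78 to 6.77), the gene-end site being the one that rose. At Rnf2, Hdac2 and Dot1l the differences were 0.32 (-0.26 to 0.90), 0.44 (-0.52 to 1.40) and -0.46 (-1.34 to 0.41), with intervals that include 0. The distal site lay over a start window at Hdac4 and Jmjd1c, and at another gene's end at Rnf2 and Dot1l.

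**Figure D5:**
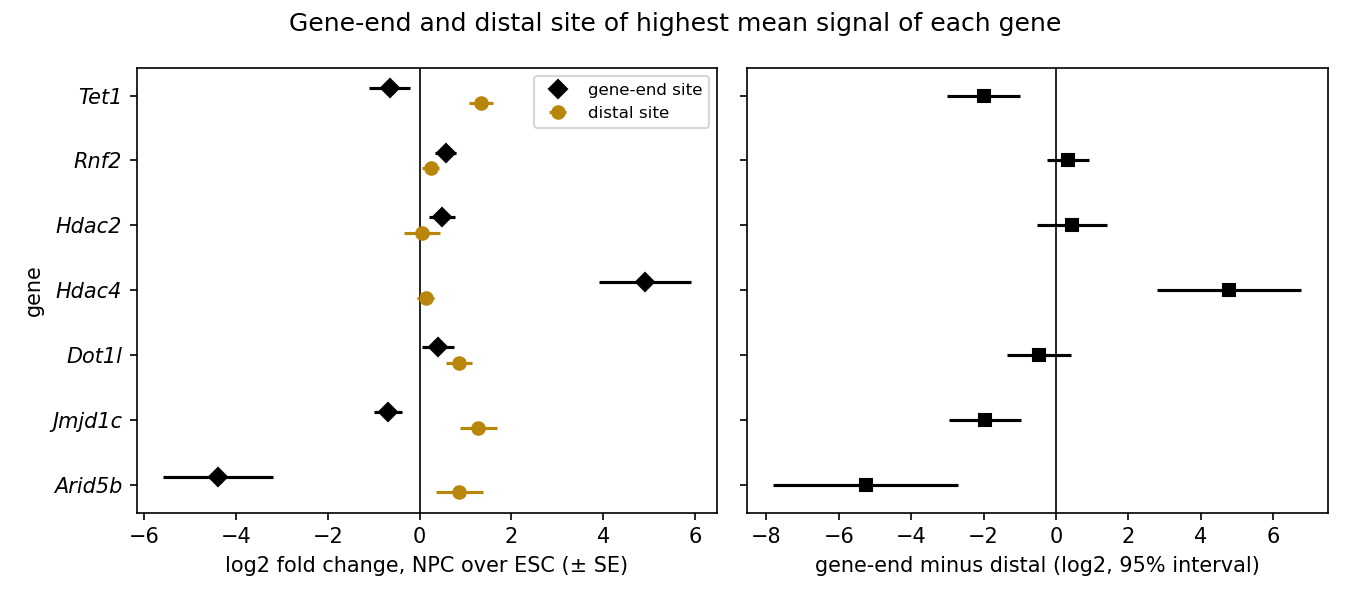
Left, log2 fold change (± SE) of the gene-end site (black diamonds) and the distal site (brown circles) of highest mean signal of each of 7 genes. Right, gene-end minus distal with its 95% interval, which leaves out 0 at Tet1, Hdac4, Jmjd1c and Arid5b.

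Other DNA methylation and histone modifier genes gave a wider frame. Of a list of 159 such genes, 14 lay in the listed regions, with 111 sites: 29 rises (26.1%), 30 falls (27.0%) and 52 sites not called (median log2 fold change -0.073). Over all 9001 listed sites 22.8% rose and 32.6% fell. The 53.2% called was close to the 55.4% of all listed sites and is no result about these genes as a group. At their gene ends 2 of 13 sites rose and 0 fell, against 24.1% rises and 16.1% falls among all 1481 gene-end sites. Those rises were 0.65 ± 0.24 at Mbd3, a subunit of the NuRD corepressor, and 1.03 ± 0.47 at Smyd2, a lysine methyltransferase, in the authors' deposited table. Rcor3, a CoREST family corepressor, had 6 rises among 9 sites and 0 falls, 3 of those rises at overlapping sites within 1 kb of an end of Traf5. Smyd3, another methyltransferase gene, had 7 rises and 7 falls among 18 sites. The site of smallest adjusted p on the list lay 45.1 kb from Prdm1, a transcriptional repressor, and 27793 bp from an end of Atg5. It had -5.74 ± 0.83 at a signal of 33.9 (adjusted p = 1.49e-10, authors' deposited table). Leading falls followed at L3mbtl3 (-4.72), Arid5a (-3.54), Rbbp5 (-4.46), Gadd45b (-5.00), Sirt6 (-3.65), Tdg (-2.91) and Mbd6 (-3.79) in the authors' deposited table. Of these, the Rbbp5 site lay nearer to an end of Dstyk (4161 bp) and the Gadd45b site nearer to one of Gng7 (1918 bp). Leading rises were those of Smyd3 (4.14) and, 51 bp from an end of another gene, Ing5 (1.56) in the authors' deposited table.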

How the data were processed

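ATAC-seq libraries (3 ESC, 3 NPC) were made from nuclei of cryopreserved cells, tagmented with Tn5 and sequenced in paired ends, per the labels' protocols. The submitters' processing notes name mm10, BWA 2.1, Picard 2.23.8, MACS2 2.2.7, SAMtools 1.9 and DESeq2, without settings. The choice of SP1 sites and any Tn5 read shift are not stated, and either could alter counts per site. Per the file headers, each 500 bp site has the authors' mean signal, log2 fold change, its SE, p-value and adjusted p-value. The direction, NPC over ESC, is that of the table's deposited name; no column gives it. The labels do not say that libraries came from separate cultures, so p-values measure only spread between libraries, possibly technical. Coordinates are as deposited, with counting from 0 or 1 not stated.

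Sites were joined to RefSeq positions in Python 3.11.15 with pandas 2.3.3. A site was called at a deposited adjusted p below 0.05, over all sites the authors tested. As alternatives, p was recomputed from fold change over SE, alone and after centring on the median of all listed sites, and adjusted over those sites. Motif letters were counted in RefSeq sequences, and 95% intervals came from deposited SEs. The recomputed p and its Benjamini-Hochberg adjustment were tested on simulated data. The members, the wider list and the tests were chosen with earlier results of these data known. Gene-end sites were all named, with up to 3 called distal sites of smallest adjusted p per gene and the leading site of 10 genes of the wider list. Further sites were named after their values were seen. The split by 5′ and 3′ ends, start windows, neighbouring pairs, the distal class away from other genes' ends and leaving out a gene were added after seeing the data.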

Additional observations from a re-analysis of the deposited data

How the results depend on the processing

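The table gives only the authors' comparison, so no library could be left out and DESeq2 could not be rerun. No paired analysis was possible because the table holds no values per library. Over 106 alternative values of the counts and the median, 82 stayed close to those reported (counts within 1.5 times) and 21 moved further. The other 3 turned the sign of the median, which lies near 0. Some of the 82 could not move, so they do not measure how stable the results are. Settings that change only the call leave the median as it is, and the window leaves the gene-end counts as they are. The median of -0.057 became 0.072 without the sites of lowest signal, 0.23 with centring and 0.10 without Arid5b. At an adjusted p below 0.01, 11 sites rose and 17 fell, with 1 rise and 1 fall at gene ends and 16 distal falls. With a log2 change above 1 also required, 1 gene-end rise was called. The p recomputed from fold change and SE was larger than the deposited p by a median of 2.35 times. At 0 of the 9001 listed sites was it below the deposited p. It is thus a stricter measure than the authors' own p, and why they differ was not tested. With it, 12 sites rose and 20 fell, with 18 distal falls and 2 gene-end falls. A window of 10000 bp gave 18 falls, 14 of them distal, and one of 100000 bp gave 44 falls, 40 distal falls and 23 distal rises. Keeping the nearest protein-coding gene only gave 18 falls, 15 distal. Centring, which also uses the recomputed p, gave 17 falls, 16 distal falls, and 4 rises and 1 fall at gene ends, where both Hdac2 start sites became called rises. Without Hdac4, an alternative added after seeing the data, 10 sites rose, 9 of them distal and 1 at a gene end. Of the 36 sites named by rule (all gene-end sites and up to 3 called distal sites per gene), 13 changed their call under at least 1 of 5 alternatives. None of the 36 changed direction, and further sites named in the text are not part of this count. Among those 13 were every call at Dot1l and at the ends of Tet1, Rnf2, Hdac2 and Jmjd1c. Shares of all listed sites under the alternatives are not given here. Low signal limits precision at many sites, with a median SE of 1.17 at the 41 sites below the median signal of all listed sites.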
